A study of Mus musculus with 38 samples.

Results

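Triglyceride synthesis and glycerol handling in brown adipose tissue was followed through 10 genes, Gpam, Agpat2, Lpin1, Dgat1, Dgat2, Gyk, Aqp7, Gpd1, Gpd2 and Pck1. They were chosen by name, as gene names equal to these symbols in the scanner files, out of 29411 gene names on the array, and all 10 were among the 21856 gene names that passed the filter on dim spots and were tested. Triglyceride is built in the endoplasmic reticulum on glycerol 3-phosphate, to which Gpam and Agpat2 add fatty acids in turn, Lpin1 removes the phosphate, and Dgat1 or Dgat2 adds the last fatty acid. Glycerol 3-phosphate comes from glycerol that enters through the channel Aqp7 and is phosphorylated by Gyk, from the glycolytic intermediate dihydroxyacetone phosphate through Gpd1, or from smaller precursors through Pck1. Brown adipocytes are known for high glycerol kinase activity, for rapid turnover of the triglyceride that fuels heat production, and for the shuttle in which cytosolic Gpd1 and mitochondrial Gpd2 pass electrons to the respiratory chain.

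The tissue came from C57BL/6J mice that were divided at weaning, at an age of 3 to 4 weeks, into 5 diet groups. LFC mice ate a control diet with 10% of calories from fat, and HFC mice ate a diet high in sucrose with 60% of calories from fat. HF5, HF20 and HF75 mice ate the HFC diet with 5, 20 or 75 µg of Kal-1, an aqueous formulation of plant origin. Kal-1 was given only together with the high fat diet. The 38 arrays comprised 10 LFC and 10 HFC arrays (days 6, 10 and 14, and weeks 0, 3, 6, 9, 12, 15 and 18) and 6 arrays for each Kal-1 dose (weeks 3 to 18). Weeks were counted from day 14, so Day 14 and Week 0 are the same day on the diet, and they were kept apart as labelled. The design text speaks of 3 biological replicates, while the labels used here give 1 array per group and time point and do not say whether RNA of several animals was pooled. Time points therefore served as replicates, and p-values measure only the spread between these arrays.

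Levels are log2 signals minus the 75th percentile of the same array, so that 0 stands for a spot at that percentile, and a level of one gene is not comparable with a level of another. The 75th percentile itself ran from 35.1 to 1209 intensity units, and 11 arrays above 600 are called bright here and the other 27 dim. Of the bright arrays 4 were LFC (Week 0, 3, 9 and 12), 2 HFC (Day 10 and Week 3), 4 HF20 (Week 3, 6, 12 and 15), 1 HF75 (Week 3) and 0 HF5. The label brown adipose was checked with Ucp1, Cidea, Cox7a1 and Cox8b, markers of brown adipocytes, and these were well above background on 38 of 38 arrays. Cidea, Cox7a1 and Cox8b were saturated on 10 arrays each and Ucp1 on 8, so summed brown adipocyte signals there are lower limits. The HF75 array of Week 3 had the lowest summed signal of the 9 brown adipocyte markers, 9.34 times its 75th percentile, against 132 to 1380 on the arrays of the other 4 groups. Of 10 skeletal muscle markers 5 to 10 were well above background on each array, with summed signals from 0.458 to 1060. In whole tissue, fewer cells of a type and less RNA per cell cannot be told apart.

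Of the 10 genes 8 were well above background on 38 of 38 arrays. Gyk was so on 37, and Gpam, the mitochondrial acyltransferase of the first step, on 20 and on 0 of 6 HF75 arrays. The Gpam spot of HF5 at Week 3 was an outlier on the array and has no value. Dgat2, Gpd1 and Pck1 were saturated on 10 arrays each, all of them bright, so their levels there are lower limits.

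**Figure D1:**
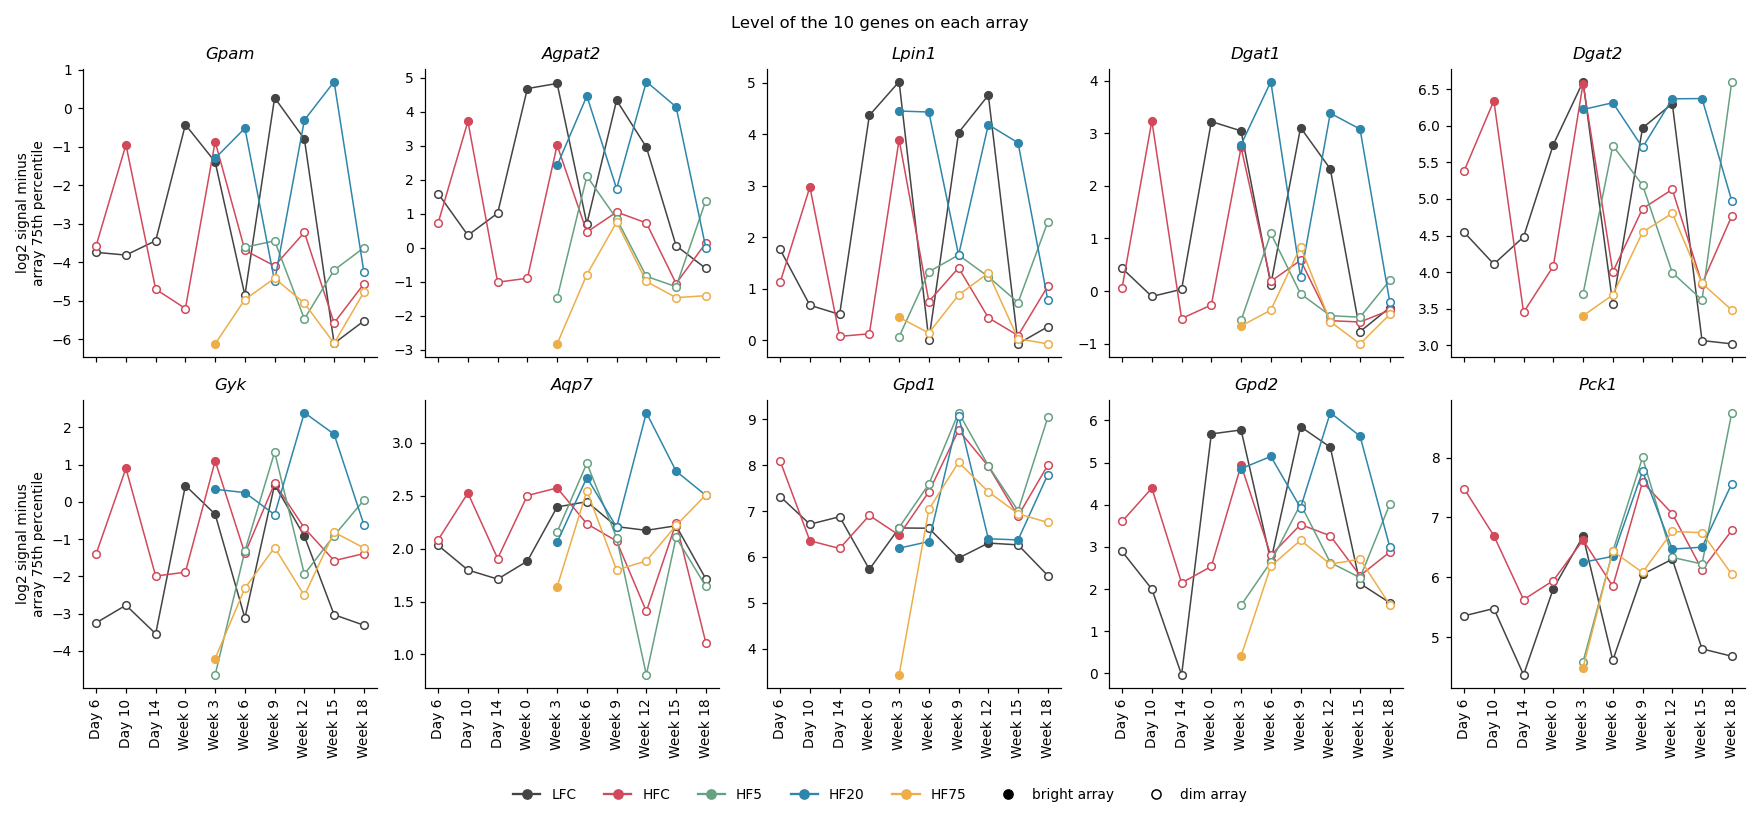
Level of each gene on each array, as log2 signal minus the array's 75th percentile (vertical axis), against the labelled time point (horizontal axis), with 1 colour per diet group, filled circles for bright arrays and open circles for dim arrays. Gpam, Agpat2, Lpin1 and Dgat1 were high wherever the array was bright, except on the HF75 array of Week 3, and Aqp7 moved least, between 0.81 and 3.29.

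Levels of the synthesis genes followed the brightness of the array. Dgat1 averaged 2.75 on the 11 bright arrays and -0.14 on the 27 dim arrays, Agpat2 3.33 and 0.07, Lpin1 3.86 and 0.75, and Gpam -1.07 and -4.49. Gpd2, the mitochondrial glycerol 3-phosphate dehydrogenase, averaged 4.93 and 2.63, and Gyk 0.20 and -1.68. In all, 7 of the 10 genes were higher by more than 1 log2 unit on bright arrays, as were 15.2% of all genes tested, while the median difference of bright minus dim over all genes was -0.32. Aqp7 averaged 2.38 and 2.03. The bright means of Pck1 (6.20, against 6.28 on dim arrays) and Gpd1 (6.02, against 7.41) are lower limits, with 10 of 11 spots saturated. Brightness was not balanced between the groups.

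The comparison of HFC with LFC asked what the high fat diet did to these genes over the 10 time points. None of the 10 passed in limma after adjustment, where 0 of all genes (0%) passed, and the smallest adjusted p among them was 0.644. The fitted differences were 1.16 for Pck1, 1.15 for Gyk and 0.90 for Gpd1, and -1.31 for Agpat2, -0.94 for Lpin1, -0.66 for Dgat1 and -0.66 for Gpam. Dgat2 (0.10), Gpd2 (-0.16) and Aqp7 (0.01) lay nearest to 0. The values were 0.07 for Gpam, -0.05 for Dgat1, 0.46 for Dgat2 and -0.29 for Lpin1 with the brightness class as a term, where 7 of the 10 were higher and the median was 0.22. In all, 5 of the 10 were higher in HFC, beside 55.3% of all genes, and the median over the 10 was -0.08 and over all genes 0.06. Pck1, Gyk and Gpd1, 3 of the 10, had an unadjusted p under 0.05, as did 6.98% of all genes. Of the brown adipocyte markers 6 of 9 were also higher in HFC, with a median difference of 0.44. Their summed signals were 158 to 1028 against 132 to 514 in LFC. These brown adipocyte values rest partly on saturated spots, with 4 bright arrays in LFC and 2 in HFC. Erythroid (0.87) and lymphocyte markers (1.14) were higher in 5 of 5 each. The part of these markers in the differences of the 10 genes was not tested.

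Pck1, phosphoenolpyruvate carboxykinase, was the gene of the 10 with the smallest p. Its level ran from 4.37 to 6.69 with a median of 5.42 in LFC, and from 5.63 to 7.59 with a median of 6.66 in HFC. The measured HFC level was above that of LFC at 9 of 10 time points, as in 1.17% of all genes at 9 or 10 of them. The LFC spots of Weeks 0, 3, 9 and 12 and the HFC spots of Day 10 and Week 3 were saturated, so the direction at these 4 weeks is not settled. With these lower limits included the difference was 1.16 (SE 0.24, 95% interval 0.64 to 1.69), with an unadjusted p of 0.000446 in limma and an adjusted p of 0.644. At the 5 time points where neither spot was saturated it was 1.61 ± 0.46 (SD), with HFC higher at all 5.

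Gyk, glycerol kinase, showed the most even difference between the diets once arrays of unlike brightness were set aside. The lowest, median and highest levels were -3.54, -2.90 and 0.46 in LFC and -1.99, -1.39 and 1.10 in HFC. The 4 highest LFC values came from the 4 bright arrays, and the 2 highest HFC values from the 2 bright arrays, so the groups overlapped. Over all time points the difference was 1.15 (SE 0.46, 95% interval 0.15 to 2.15), with HFC higher at 9 of 10. With normexp background correction in place of the scanner's own it was 0.42.

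Both diets had arrays of the same brightness class at 6 time points, namely Days 6 and 14 and Weeks 3, 6, 15 and 18. The Gyk differences there, in this order, were 1.85, 1.55, 1.43, 1.73, 1.45 and 1.92. Their mean was 1.66 ± 0.21 (SD, n = 6), and the 3 time points with a bright LFC and a dim HFC array gave -2.33, 0.03 and 0.22. HFC was higher at 6 of 6 matched time points for Gyk, as it was for 1.42% of all genes. In limma on these 12 arrays Gyk had the smallest p of 21856 genes (unadjusted p 8.35e-06, SE 0.15), with an adjusted p of 0.182. With the brightness class as a term over all 20 arrays its difference was 1.60 (SE 0.24, adjusted p 0.214). The choice of the matched time points was made after the arrays were seen.

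All 3 Gyk probes showed the same direction at the matched time points, with mean differences of 1.86, 1.66 and 1.30 and HFC higher at 6 of 6 for each. The probe with the highest mean signal, which carries the Gyk values given here, is shown because the diet difference was read from it. The Pck1 and Gyk promoters are shown because these 2 genes had the largest positive differences between the diets. The windows are the 250 bases before the start site given by RefSeq (GRCm38.p6), chr2:173152823-173153072 on the plus strand for Pck1 and chrX:85776820-85777069 on the minus strand for Gyk (RefSeq symbol Gk). Capitals mark matches to the motifs searched on both strands: ACGTCA (the core of a cAMP response element), CACGTG (the E-box), GGGCGG (the GC box), AGGTCA (the nuclear receptor site), CCAAT (the NF-Y box) and TATAAA (the core promoter box).
Gyk probe: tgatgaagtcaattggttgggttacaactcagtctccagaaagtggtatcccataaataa
Pck1 promoter: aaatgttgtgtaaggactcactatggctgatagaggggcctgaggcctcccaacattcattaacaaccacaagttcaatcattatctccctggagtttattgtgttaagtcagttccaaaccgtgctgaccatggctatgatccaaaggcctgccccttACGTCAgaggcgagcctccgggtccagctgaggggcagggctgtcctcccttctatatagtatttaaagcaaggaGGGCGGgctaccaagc
Gyk promoter: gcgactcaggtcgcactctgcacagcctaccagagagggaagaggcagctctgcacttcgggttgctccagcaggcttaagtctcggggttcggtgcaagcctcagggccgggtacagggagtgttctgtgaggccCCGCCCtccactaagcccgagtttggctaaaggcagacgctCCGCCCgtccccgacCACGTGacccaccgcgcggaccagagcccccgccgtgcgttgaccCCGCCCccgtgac
The Pck1 window held ACGTCA 91 bases and GGGCGG 16 bases before the start site. The Gyk window held CACGTG 58 bases before it, which reads the same on both strands, and GGGCGG on the minus strand at 13, 73 and 114 bases. Of 32851 RefSeq promoter windows of this length 6.47% hold ACGTCA, 6.02% CACGTG and 32.7% GGGCGG. A match describes the letters only.

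**Figure D2:**
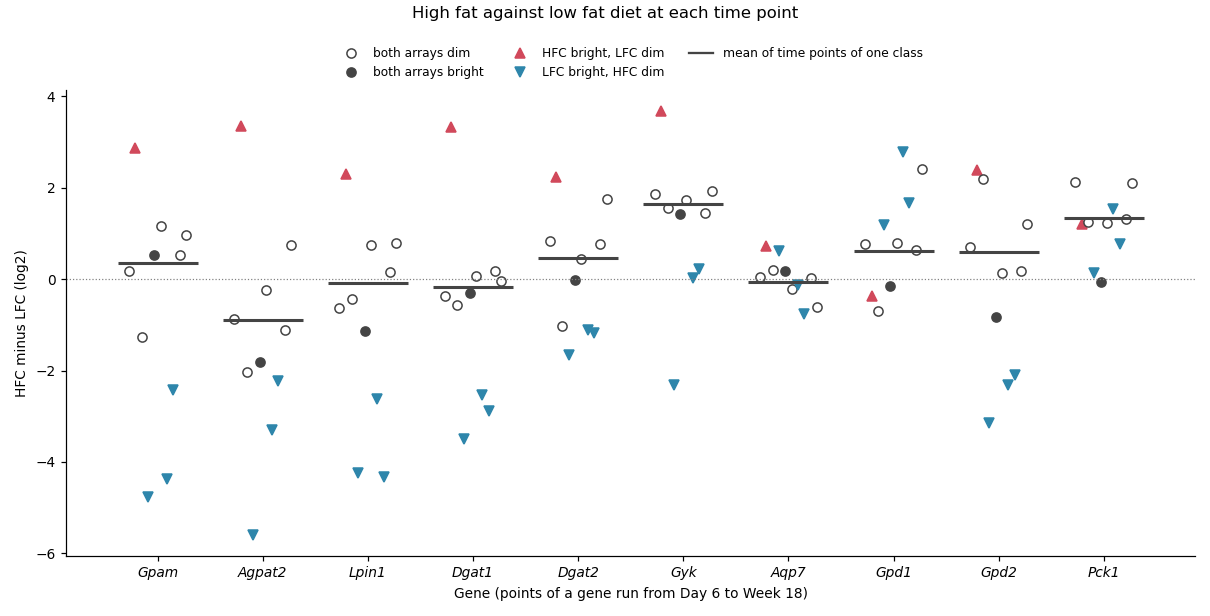
Difference of HFC minus LFC in log2 units at each time point (vertical axis) for the 10 genes (horizontal axis, points of a gene in time order), with circles where both arrays were dim (open) or bright (filled), triangles where only 1 of the pair was bright, and a line at the mean of the 6 matched time points. The matched Gyk points lie between 1.43 and 1.92, while for Dgat1, Agpat2 and Lpin1 the points of unlike brightness lie far above and below the matched ones.

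Gpd1, the cytosolic dehydrogenase that makes glycerol 3-phosphate, gave different answers from its 2 probes. The brighter probe ran from 5.59 to 7.32 with a median of 6.46 in LFC and from 6.18 to 8.76 with a median of 7.16 in HFC, and the 5 highest HFC values lay above every LFC value, of which 4 are lower limits. Its difference was 0.90 (SE 0.35, unadjusted p 0.0230, adjusted p 0.644), with HFC higher at 7 of 10 time points. The other probe, which was never saturated, gave a mean difference of -0.21 over all time points. At the 6 matched time points the differences were 0.63 and 0.43, each higher in HFC at 4 of 6. The second probe is shown because its answer differed from that of the first.
Gpd1 second probe: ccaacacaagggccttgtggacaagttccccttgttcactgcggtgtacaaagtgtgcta

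Agpat2, the acyltransferase that makes phosphatidate, had the lowest difference of the 10. Its level ran from -0.61 to 4.84 with a median of 1.31 in LFC and from -1.06 to 3.72 with a median of 0.59 in HFC, and the groups overlapped over most of this range. The difference was -1.31 (SE 0.68, 95% interval -2.78 to 0.17, adjusted p 0.644), with HFC lower at 8 of 10 time points. With the brightness class as a term it was -0.65 (SE 0.37), and at the matched time points it was -0.89 ± 1.03 (SD), lower at 5 of 6.

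Dgat1, Lpin1 and Gpam went with the brightness of the pair. At the 3 time points with a bright LFC and a dim HFC array the mean differences were -2.97 for Dgat1, -3.73 for Lpin1 and -3.86 for Gpam. At Day 10, the time point with a bright HFC and a dim LFC array, they were 3.34, 2.30 and 2.87. At the matched time points they were -0.17 ± 0.28 for Dgat1, -0.08 ± 0.78 for Lpin1 and 0.35 ± 0.86 for Gpam (SD, n = 6). The 95% interval of the Dgat1 difference over all time points, -1.88 to 0.56, still allows a change of more than 2-fold. Dgat2, which with Dgat1 completes triglyceride, had 0.46 ± 0.93 at the matched time points, Gpd2 0.60 ± 1.03 and the glycerol channel Aqp7 -0.06 ± 0.30.

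From Week 3 to Week 18 alone, in the fit shared with the Kal-1 groups, 0 of the 10 genes passed HFC against LFC, beside 0.00915% of all genes. Gpd1 had a difference of 1.36 (unadjusted p 0.0093), with -0.08 by its second probe, Pck1 of 1.15 (unadjusted p 0.0299) and Gyk of 1.13, all with adjusted p values of 0.335 or above in limma. The first 2 of these had an unadjusted p under 0.05, as did 14.4% of all genes. Gyk was higher in HFC at 6 of 6 time points, as were 2.45% of all genes. With the brightness class as a term the Gyk difference was 2.05 (SE 0.66) and that of Pck1 1.31.

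Kal-1 was compared with the same diet without it, and no gene of the 10 passed at any dose. At the lowest dose, HF5 against HFC, the differences ran from -0.66 for Gyk to 0.31 for Gpd1 with a median of -0.13, against 0.01 over all genes. All adjusted p values were 0.901 or above, and 0 of the 10 had an unadjusted p under 0.05, against 5.46% of all genes. The measured Gpd1 level was higher in HF5 at 6 of 6 time points, as were 3.44% of all genes, by a mean of 0.31 (SE 0.48, 95% interval -0.67 to 1.30). The HFC spot of Week 3 was saturated, so the direction there is not settled. At the 5 time points without saturation HF5 was higher at 5, by 0.34 ± 0.41 (SD). The second Gpd1 probe gave -0.62.

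At the middle dose, HF20 against HFC, 9 of the 10 genes were higher, beside 41.5% of all genes, and the median difference was 1.36 against -0.20 over all genes. The largest differences belonged to the synthesis genes, Agpat2 with 2.22 (SE 0.92), Gpam with 1.97 (SE 1.06), Lpin1 with 1.95 (SE 0.79) and Dgat1 with 1.88 (SE 0.70). The fitted value of Gpd1 was -0.56, but 4 of its 6 HF20 spots were saturated and are lower limits. At the 2 time points without saturation Gpd1 differed by 0.05, and its second probe gave 1.94 over all 6. Without Week 3 the differences of Agpat2 and Dgat1, 2 of the 10, passed, beside 16.4% of all genes. None passed with all weeks (smallest adjusted p 0.118 in limma, 0% of all genes), and 5 of the 10 against 33.2% of all genes had an unadjusted p under 0.05.

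HF20 had 4 bright arrays of 6 and HFC 1 of 6 in these weeks. With the brightness class as a term the median difference was 0.22 and 0 of the 10 had an unadjusted p under 0.05, against 3.11% of all genes. At the 3 time points of matched brightness Dgat1 differed by -0.04 and Agpat2 by -0.02. The muscle markers were higher in HF20 in 10 of 10, with a median difference of 1.83 and summed signals of 0.742 to 413 against 0.775 to 39.0 in HFC. White adipocyte markers were higher in 3 of 3 (1.46), macrophage in 5 of 5 (0.50), general adipocyte in 4 of 5 (0.64) and brown adipocyte in 6 of 9 (0.33). Erythroid (-1.57) and lymphocyte markers (-1.48) were lower in 5 of 5. The part of these cells in the differences was not tested.

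At the highest dose, HF75 against HFC, 9 of the 10 genes were lower, where 47.6% of all genes were higher, and the median difference was -0.94 against -0.03 over all genes. HF75 and HFC arrays were of the same brightness class at 6 of 6 time points. Agpat2 ran from -2.83 to 0.75 with a median of -1.21 in HF75, and from -1.06 to 3.02 with a median of 0.59 in HFC. HF75 was lower at 6 of 6 time points for Agpat2, as it was for 2.52% of all genes. The Agpat2 difference was -1.85 (SE 0.92, 95% interval -3.75 to 0.06, adjusted p 0.556). Gpam was not well above background in HF75 and averaged -3.67 in HFC, under the background limit of -3.60, so it has no bound here. Gyk differed by -1.47 (SE 0.82), Gpd2 by -1.12 (SE 0.69) and Gpd1 by -0.98 (SE 0.48).

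None of the 10 passed in HF75 against HFC, where 0% of all genes passed, and 0 had an unadjusted p under 0.05, against 9.15% of all genes. With the brightness class as a term in limma the fitted differences stayed the same. Agpat2, Gyk, Gpam, Gpd1 and Gpd2 then had unadjusted p values of 0.0117 to 0.0431. Their adjusted p values were 0.220 or above, and no share of all genes is given for that fit. Without Week 3, where the HF75 array had the low brown adipocyte markers given above, the differences were -1.05 for Agpat2, -0.71 for Gyk, -0.57 for Gpd1 and -0.43 for Gpd2. Of the 9 brown adipocyte markers 8 were also lower in HF75, with a median difference of -1.44. Their summed signals were 9.34 to 458 in HF75 and 218 to 1028 in HFC, and Ucp1 and Cidea were well above background on each of these arrays. White adipocyte markers were lower in 3 of 3 (-1.85), erythroid (-0.35) and lymphocyte markers (-0.58) in 5 of 5 each, and general adipocyte markers in 3 of 5 (-0.13). Muscle markers were higher in 10 of 10 (0.59) and macrophage markers in 3 of 5 (0.29). The part of these cells in the differences was not tested.

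**Figure D3:**
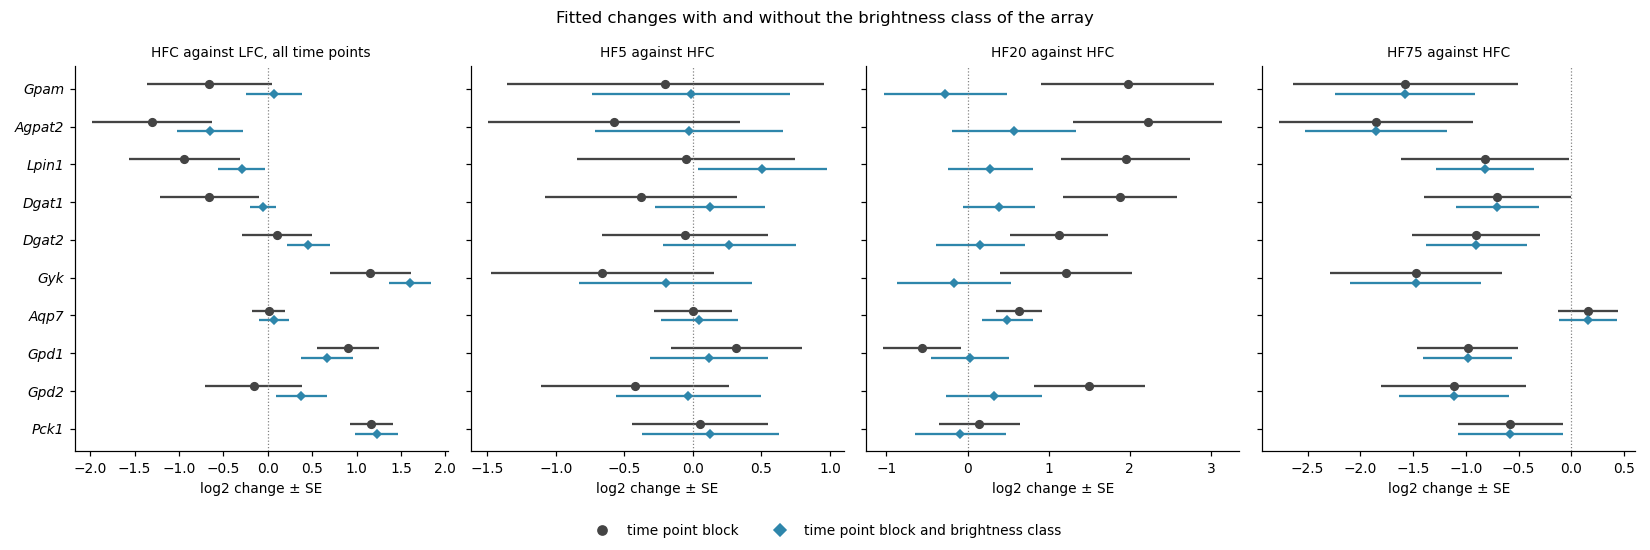
Fitted log2 change with its standard error (horizontal axis) for the 10 genes (vertical axis) in 4 comparisons, from the fit with the time point as a block (circles) and with the brightness class added (diamonds). For HF20 against HFC the Agpat2 value went from 2.22 to 0.58 with the class added. For HF75 against HFC it was -1.85 in both fits. These arrays shared a class at each time point, so the added term could not move that value.

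The 3 doses were then compared with each other, and 4 of the 10 genes differed among them in limma's moderated F test, beside 13.4% of all genes. They were Agpat2 (adjusted p 0.0342), Dgat1 (0.0378), Gpd2 (0.0389) and Lpin1 (0.0481). In each the level was highest in HF20 and lowest in HF75, an order held by 24.9% of all genes. Of the others Gyk (0.0571), Dgat2 (0.0585), Gpam (0.0777), Gpd1 (0.112), Aqp7 (0.190) and Pck1 (0.443) did not pass by the probe with the highest mean, which was saturated on 4 HF20 arrays for Dgat2, Gpd1 and Pck1. By other probes 2 of 3 for Dgat2, 1 of 2 for Gpd1 and 1 of 3 for Gyk passed, the last well above background on 15 of 38 arrays.

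Agpat2 ran from -1.48 to 2.11 with a median of 0.00 in HF5, from -0.01 to 4.89 with a median of 3.29 in HF20, and from -2.83 to 0.75 with a median of -1.21 in HF75. HF20 overlapped with both other doses through its dim arrays of Week 9 and Week 18. HF20 was above HF5 by 2.80 (SE 0.92) and HF75 was below HF20 by -4.07, lower at 6 of 6 time points, as were 11.9% of all genes. At the 2 time points where HF20 and HF5 shared a brightness class, HF20 minus HF5 was -0.26 ± 1.61 (SD). At the 3 time points where HF20 and HF75 shared a brightness class the difference was -2.55 ± 2.35 (SD), lower at 3 of 3. It was -5.26 at Week 3, with the HF75 array of low brown adipocyte markers, -0.99 at Week 9 and -1.41 at Week 18.

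Dgat1, which esterifies diacylglycerol in the endoplasmic reticulum, ran from -0.56 to 1.10 with a median of -0.26 in HF5, from -0.21 to 3.98 with a median of 2.93 in HF20 and from -1.01 to 0.84 with a median of -0.51 in HF75. Its 4 values above 2 all came from the bright HF20 arrays, and the dim HF20 arrays of Week 9 and Week 18, at 0.27 and -0.21, lay among the other doses. HF20 was above HF5 by 2.26 (SE 0.70), but by 3.41 at the 4 time points of unlike brightness and by -0.05 ± 0.52 (SD, n = 2) at the matched ones. HF75 was below HF20 by -2.58, and by -1.04 ± 2.13 (SD, n = 3) at matched time points. The matched difference was -3.45 at Week 3, with the HF75 array of low brown adipocyte markers, 0.57 at Week 9 and -0.23 at Week 18.

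Lpin1, the phosphatidate phosphatase that also acts as a coactivator of metabolic genes, ran from 0.07 to 2.30 with a median of 1.28 in HF5, from 0.78 to 4.45 with a median of 4.01 in HF20 and from -0.07 to 1.30 with a median of 0.29 in HF75. Gpd2 ran from 1.61 to 4.01 with a median of 2.64, from 3.00 to 6.18 with a median of 5.00 and from 0.41 to 3.16 with a median of 2.57 in the same order. In both genes the 4 bright HF20 arrays gave the highest values of the 3 doses. HF20 was above HF5 by 2.01 (SE 0.79) for Lpin1 and by 1.93 (SE 0.69) for Gpd2. At the 2 time points where HF20 and HF5 shared a brightness class, HF20 minus HF5 was -0.76 ± 1.08 for Lpin1 and -0.55 ± 0.66 for Gpd2 (SD). HF75 was below HF20 by -2.77 and -2.62, lower at 6 of 6 time points in both genes, as in 11.9% of all genes.

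Gyk and Dgat2 did not pass, but their HF20 and HF75 values did not overlap, as in 3.77% of all genes with HF20 higher. Gyk ran from -0.61 to 2.39 with a median of 0.29 in HF20 and from -4.20 to -0.82 with a median of -1.78 in HF75, a fitted difference of -2.69. Dgat2 ran from 4.97 to 6.37 in HF20, with 4 of 6 spots saturated, and from 3.40 to 4.80 in HF75, a difference of -2.03. At the 3 matched time points HF75 was lower at 3 of 3 for Gyk (-2.02 ± 2.19, SD), for Dgat2 (-1.82 ± 0.88) and for Pck1 (-1.65 ± 0.13). They include Week 3, with the HF75 array of low brown adipocyte markers. Gyk differed there by -4.54, against -0.88 at Week 9 and -0.63 at Week 18. The HF20 spots of Dgat2 and Pck1 were saturated at Week 3, so the mean and SD of these genes rest partly on a lower limit. Pck1 ran from 4.59 to 8.75 in HF5, from 6.25 to 7.77 in HF20 and from 4.49 to 6.77 in HF75, and its HF20 values at the dim Week 9 and Week 18 arrays, 7.77 and 7.56, were the only ones of that group that were not saturated.

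Gpam could not be given a fold in HF75, where its spots were not well above background. Measured levels averaged -5.25 in HF75 and -1.70 in HF20, where 4 of 6 spots were well above background and 4 of 6 arrays bright. With the HF75 arrays raised to their lowest signal well above background, -3.60, the mean Gpam level was 3.73-fold higher in HF20. On the dim HF20 arrays of Week 9 and Week 18 the measured HF75 difference from HF20 was 0.08 and -0.53. The mean was 1.44-fold higher in LFC (-3.07) of the same weeks, where 3 of 6 spots were well above background. Since the other HF20 and LFC spots were not, these folds are no firm lower limits. With the brightness class as a term HF75 differed by -1.30 from HF20 and by -0.68 from LFC.

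The outcome of the test among the doses changed with single weeks left out and with the brightness class in the model. Leaving out Week 3, 6, 12 or 15 in turn left 0 of the 10 genes and 0 of all genes past it, while leaving out Week 9 or 18, where HF20 was dim, let 6 of the 10 pass, beside 24.7% and 24.6% of all genes. With the brightness class in the model 0 of the 10 and 0 of all genes passed. The HF75 difference from HF20 was then -2.42 for Agpat2 (adjusted p 0.293), -1.09 for Dgat1, -1.10 for Lpin1 and -1.45 for Gpd2. Of the brown, general and white adipocyte markers 1 of 9, 1 of 5 and 2 of 3 passed among the doses and of the muscle, erythroid, macrophage and lymphocyte markers 0, and their part was not tested. Brightness and dose cannot be told apart for HF20, whose bright arrays made up 4 of its 6.

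Tested probe by probe, 13 of the 20 probes of the 10 genes passed among the doses, beside 13.9% of 30419 probes. The 2 Agpat2 probes share 40 bases, in capitals here, and are not independent measurements of the transcript, while the 2 Dgat1 probes have no bases in common. They are shown with the Gpd2 probe because these genes were among the 4 that differed among the doses. Of the 3 probes of Lpin1, the remaining gene, which are not shown, 2 also share 40 bases.
Agpat2 first probe: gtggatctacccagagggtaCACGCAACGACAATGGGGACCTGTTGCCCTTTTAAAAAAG
Agpat2 second probe: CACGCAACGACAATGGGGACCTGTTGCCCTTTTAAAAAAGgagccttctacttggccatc
Dgat1 first probe: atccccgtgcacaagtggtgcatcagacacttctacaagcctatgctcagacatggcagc
Dgat1 second probe: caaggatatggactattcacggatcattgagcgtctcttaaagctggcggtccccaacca
Gpd2 first probe: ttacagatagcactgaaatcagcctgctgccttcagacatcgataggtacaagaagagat
The HF75 difference from HF20 was -4.07 and -4.21 by the 2 Agpat2 probes and -2.58 and -2.77 by the 2 Dgat1 probes. Of the Gpd1 probes the saturated one gave -0.42 and the other -4.44, and of the Dgat2 probes the saturated one gave -2.03 and the others -3.73 and -4.33.

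The promoters of Agpat2 and Lpin1, which passed together and whose windows are in the RefSeq table, are shown with motif matches in capitals. They are chr2:26604418-26604667 for Agpat2 and chr12:16610967-16611216 for Lpin1, both on the minus strand (GRCm38.p6). No window was matched for Dgat1, Dgat2 and Gpd1.
Agpat2 promoter: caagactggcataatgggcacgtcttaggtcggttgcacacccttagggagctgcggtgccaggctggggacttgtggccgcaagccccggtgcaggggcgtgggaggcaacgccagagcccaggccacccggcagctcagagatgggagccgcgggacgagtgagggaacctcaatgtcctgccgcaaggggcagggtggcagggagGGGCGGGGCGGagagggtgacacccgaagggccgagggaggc
Lpin1 promoter: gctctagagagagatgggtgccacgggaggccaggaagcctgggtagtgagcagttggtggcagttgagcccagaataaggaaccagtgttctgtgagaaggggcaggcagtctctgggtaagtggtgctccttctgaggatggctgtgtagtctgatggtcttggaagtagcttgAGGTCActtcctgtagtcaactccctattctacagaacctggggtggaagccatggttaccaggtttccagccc
The Agpat2 window held 2 overlapping copies of GGGCGG at 37 and 42 bases before the start site, and the Lpin1 window held AGGTCA at 74 bases. Over the 10 windows of the 7 genes in the table GGGCGG was in 5, AGGTCA in 4, ACGTCA in 2, CACGTG in 1, CCAAT in 1 and TATAAA in 0. Of all windows 14% hold AGGTCA, 33.8% CCAAT and 12.4% TATAAA.

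**Figure D4:**
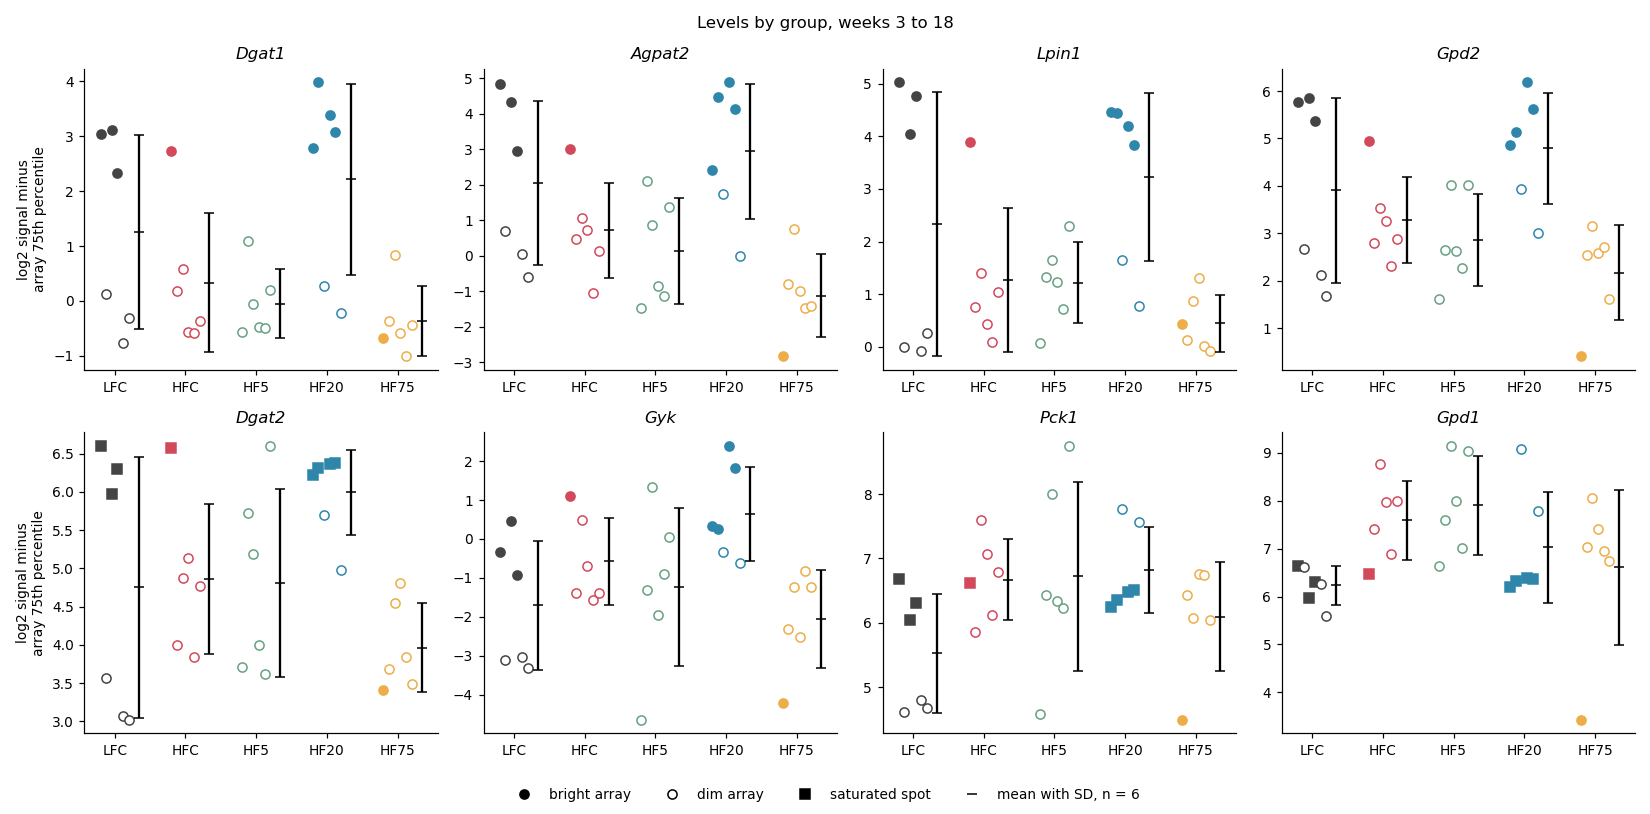
Level in log2 units relative to the array's 75th percentile (vertical axis) on the arrays of weeks 3 to 18 by group (horizontal axis) for 8 of the genes, with filled circles for bright arrays, open circles for dim arrays, squares for saturated spots, and bars at the mean with SD (n = 6). For Dgat1, Agpat2, Lpin1 and Gpd2 the bright HF20 arrays form the upper cluster, and the Gyk and Dgat2 values of HF75 lie below all HF20 values.

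Against the low fat diet the dose groups gave the following values, which share the LFC arrays with HFC against LFC. In HF5 against LFC, Gpd1 ran from 6.64 to 9.15 in HF5 and from 5.59 to 6.63 in LFC, where 3 of the 6 spots, the highest included, were saturated, so whether the groups overlap is not settled. The Gpd1 difference was 1.67 (SE 0.48, adjusted p 0.367), and the second Gpd1 probe, which was never saturated, gave -0.69. Pck1 differed by 1.20 over all 6 time points and by 2.44 at the 3 without a saturated spot. Agpat2 differed by -1.90, and by -0.26 with the brightness class as a term, with 3 bright arrays of 6 in LFC and 0 in HF5. None of the 10 passed, beside 0.00915% of all genes.

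In HF20 against LFC all 10 genes were higher, beside 42.9% of all genes, and none passed (0%). Gyk differed by 2.35 (SE 0.82, 95% interval 0.66 to 4.03, adjusted p 0.842) and Pck1 by 1.30 (SE 0.50), and these 2 of the 10 had an unadjusted p under 0.05, against 4.95% of all genes. Bright arrays were 4 of 6 in HF20 and 3 of 6 in LFC, and with the brightness class as a term Gyk differed by 1.88. Neither Pck1 spot was saturated at 1 time point, Week 18, so the Pck1 value rests on lower limits.

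In HF75 against LFC 8 of the 10 were lower, where 58.3% of all genes were higher, and none passed, beside 0.0275% of all genes. The largest difference was that of Agpat2, -3.18 (SE 0.92, 95% interval -5.08 to -1.27, adjusted p 0.216), lower at 6 of 6 time points as in 2.69% of all genes. Lpin1 (-1.88), Gpd2 (-1.74) and Dgat1 (-1.62) also had an unadjusted p under 0.05, as did 18.9% of all genes. Without Week 3, where the HF75 array had low brown adipocyte markers, the differences were -2.28 for Agpat2, -1.34 for Lpin1, -1.01 for Gpd2 and -1.20 for Dgat1. The Gyk difference went from -0.34 to 0.36. Gpd1 was counted as higher by its brighter probe (0.38), while its second probe gave -2.58. LFC had 3 bright arrays of 6 in these weeks and HF75 had 1. With the brightness class as a term the Agpat2 difference was -2.08 (unadjusted p 0.0081 in limma, adjusted p 0.702). The difference was then -0.77 for Lpin1 (unadjusted p 0.133), -0.96 for Gpd2 (0.0970) and -0.62 for Dgat1 (0.150).

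The order of the group means over weeks 3 to 18 was HF20, LFC, HFC, HF5 and HF75 for Agpat2, Dgat1, Lpin1 and Gpd2. For Agpat2 these means were 2.94 ± 1.90, 2.05 ± 2.31, 0.72 ± 1.34, 0.15 ± 1.50 and -1.13 ± 1.16 (SD, n = 6), and for Dgat1 2.21 ± 1.75, 1.25 ± 1.77, 0.33 ± 1.26, -0.05 ± 0.63 and -0.37 ± 0.63. Neighbours in this order lay no further apart than the larger of their SDs in both genes. HF20 was above LFC by 0.35 for Agpat2 and 0.46 for Dgat1 with the brightness class as a term. Pck1 and Gpd1 were given no order, since 3 of 6 LFC and 4 of 6 HF20 spots were saturated. For Gyk the order was HF20 (0.64 ± 1.20), HFC (-0.58 ± 1.12), HF5 (-1.24 ± 2.02), LFC (-1.71 ± 1.64) and HF75 (-2.05 ± 1.25). Its HF20 and HFC means lay slightly further apart than either SD, and the other neighbours lay within the spread. Aqp7 held between 1.94 ± 0.67 in HF5 and 2.58 ± 0.44 in HF20.

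Over the course of either diet no gene of the 10 moved with the days on diet in limma, beside 1.63% of all genes. The slopes per 100 days were negative in 9 of 10, where 53.8% of all genes had positive ones, at -1.29 (SE 0.86, adjusted p 0.403) for Gpam, -1.12 (SE 0.81) for Agpat2 and -0.92 (SE 0.67) for Dgat1, and 0.07 (SE 0.35) for Gpd1. Fitted with the brightness class they were -0.69, -0.54, -0.42 and -0.05, and those of Gyk (0.20), Gpd2 (0.24) and Pck1 (0.14) were positive. With normexp background correction the Gpam slope was positive. The difference between the diets did not pass for change over days in any of the 10 (0% of all genes). In the limma fit without brightness it was steepest for Gpd1, at 1.48 per 100 days (SE 0.62, unadjusted p 0.0360, adjusted p 0.284). Given per day, this Gpd1 value was 0.0148, and the second Gpd1 probe, never saturated, gave 0.0052 per day. With the brightness class as a term the value per 100 days was 1.20 for Gpd1, under Agpat2 (1.47) and Gpam (1.29).

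Other genes of the pathway were taken from a list of 32, of which 31 were on the array and 30 were tested, and none of them passed in a comparison of diets or of a dose with a diet. In HFC against LFC 13 were higher and 17 lower with a median of -0.07. The 9 other acyltransferases were lower in 8, with a median of -0.40, and the 6 phosphatidate phosphatases higher in 4, with a median of 0.38. Fitted with the brightness class, the acyltransferases were lower in 6, with a median of -0.18, and the phosphatases higher in 3, with a median of -0.01. The smallest p values were those of Aqp3, another glycerol channel (0.80, SE 0.40), Gk2, a second glycerol kinase gene (1.38, SE 0.71), and Lclat1, a lysocardiolipin acyltransferase (-0.48, SE 0.25), each with an adjusted p of 0.644. Aqp3 was well above background on 4 LFC and 3 HFC arrays of 10 and Gk2 on 3 of 10 in each, so their differences rest mostly on spots near background.

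Among the doses 10 of these 30 passed, beside the 13.4% of all genes. HF75 was below HF20 for 6 of them. They were the acyltransferases Agpat3 (-1.93, adjusted p 0.0491) and Mogat2 (0.0476), the glycerol 3-phosphate dehydrogenase homologue Gpd1l (0.0459), Cds1 (-2.02, 0.0416), which turns phosphatidate to CDP-diacylglycerol, Chpt1 (-2.80, 0.0342), a cholinephosphotransferase that uses diacylglycerol, and Bscl2 (-2.98, 0.0352), the seipin of lipid droplet assembly. Mogat2 and Gpd1l were well above background on 1 of 6 HF75 arrays each, so no size is given for them, and Cds1 on 3 of 6. For the other 4 HF75 was above HF20: Agpat4 (1.89, 0.0368), the phosphatase gene Plpp3 (1.74, 0.0494), the diacylglycerol kinase Dgkz (1.34, 0.0386) and Cds2 (0.96, 0.0438). The first 6 were higher on bright than on dim arrays and the other 4 lower, and with the brightness class in the model 0 of the 30 passed.

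The genes whose levels ran most like those of the 10 over the 38 arrays are given as a description, since arrays share diet, time and brightness. Pearson's r was 0.972 for Dgat1 with Hisppd2a, 0.970 for Lpin1 with Gpt, an alanine aminotransferase, 0.960 for Gpam with Kcnk3, 0.958 for Agpat2 with Txnrd2, a mitochondrial thioredoxin reductase, and 0.958 for Gpd2 with Dld, a subunit of the pyruvate dehydrogenase complex. On the 27 dim arrays alone these 5 values lay between 0.677 and 0.901. Gyk was most like 4933403F05Rik (0.913) and Plin5 (0.898), a coat protein of lipid droplets, Gpd1 like Acaa2 (0.921), a thiolase of fatty acid oxidation, Pck1 like Cs (0.864), the citrate synthase, Dgat2 like LOC634990 (0.954) and Aqp7 like Crbn (0.775). Within the 10, the highest r on dim arrays was that of Gyk and Pck1 (0.873, n = 27), which was 0.675 over all 38 arrays.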

How the data were processed

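Gene expression in brown adipose tissue was measured on 38 one-colour Agilent arrays, 1 for each group and time point. The deposited scanner files hold spot intensities, which the authors obtained with Agilent Feature Extraction (10.5.1.1 in the file headers, 9.1 in the submitters' processing notes), background-corrected by that software and not normalized between arrays, together with flags for background, saturation and outliers. A deposited summary of fold changes against LFC and its p-values holds the authors' own comparisons and was not used. Columns mapped to no sample numbered 0.

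Of the 40628 probes, 60 bases long, control spots were left out and outlier spots set to missing. Levels are log2 of the processed signal minus each array's 75th percentile. The probe with the highest mean stood for each of 29411 gene names, and 21856 that were well above background on at least 6 of 38 arrays were tested. The precision of a value is limited by the number of arrays, since a spot has no count.

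Groups came from the labels. HFC was compared with LFC over all 20 arrays, and the 5 groups over the 30 arrays of weeks 3 to 18, with limma's linear model and moderated statistics (lmFit, eBayes), the time point as a block, and Benjamini-Hochberg adjustment over all genes tested at 0.05. The 3 doses were compared by a moderated F test. Slopes over days on diet, and the product of diet and day, were fitted on the LFC and HFC arrays. A time point names the same day on diet in each group, and most time points shared a scan day, 12 in all on 32 slides.

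The 10 genes, the other pathway genes, the marker lists and the boundary of 600 intensity units between bright and dim arrays were chosen with earlier results of these data known. All 10 genes are named. Other pathway genes are named where they passed a test, otherwise the 3 with the smallest p in HFC against LFC, and the likeness rule took the 2 gene names with the highest Pearson r over the 38 arrays. Probe sequences are those of the scanner files and promoters those of RefSeq (GRCm38.p6), in which 7 of the 10 genes had windows.

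Alternatives were quantile normalization, normexp background correction, other filters on dim probes, the mean over probes, slide or scan day as a block, the brightness class, array weights, a skeletal muscle covariate, no time point block, the methods' t-test, each time point left out, and, added after the data were seen, each probe on its own, signals raised to the background floor, and only time points of 1 brightness class. The steps were tested on simulated data of 20854 genes. Among 100 genes changed by 2 log2 units 78% were recovered for HFC against LFC over all time points, 65% over weeks 3 to 18 and 69% for HF20 against HFC, and among 100 changed by 4 units 94% for the doses. The simulated noise was drawn for each gene on its own, without a brightness shared by the genes of an array. These shares therefore check the steps and do not measure the power of the tests on the real arrays. R 4.3.3, limma 3.58.1, data.table (1.17.8), Python 3.11.15 and matplotlib 3.10.9 were used.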

Additional observations from a re-analysis of the deposited data

Results flagged for a closer look

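Of 50 sets of levels, those of 10 genes in 5 groups, 3 held a value far from the rest, where chance flags about 1 in 20. In HF75 the Week 3 level of Gpd1 was 3.43, against 6.75 for the next lowest, and that of Pck1 was 4.49, against 6.05. Both spots are on the array with the lowest summed brown adipocyte markers, whose part was not tested. In HF75 the Week 9 level of Dgat1 was 0.84, against -0.36 for the next highest.

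The effect of Kal-1 differed between its doses, by the F test in limma, for Agpat2 (adjusted p 0.0342), Dgat1 (0.0378), Gpd2 (0.0389) and Lpin1 (0.0481). HF20 was the highest and HF75 the lowest for each, an order held by 24.9% of all genes, and brightness and dose cannot be told apart for HF20.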

How the results depend on the processing

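The number of the 10 genes that passed among the doses was 4, and it was 0 with normexp, 0 with no filter on dim probes, 0 with the brightness class in the model, 1 with the skeletal muscle covariate (3.3% of all genes), 7 with slide as a random block (29.6%), 7 with array weights (40%) and 7 counting any probe tested on its own (13.9% of probes), beside 13.4% of all genes for the 4. Leaving out each time point gave 0 to 6 (up to 24.7%), with 0 without Week 3, 6, 12 or 15. For HF20 against HFC it was 0, with 7 under array weights (37.6%) and 0 to 2 on leaving out each time point, 2 without Week 3 (16.4%). The cause of these shifts was not tested. In the other comparisons 0 passed under each alternative run, the methods' t-test of HFC against LFC included.

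The time point pairs arrays by the day on diet and not by animal. With no replicate block 0 of the 10 passed in HFC against LFC and 3 passed the test of Differences among HF5, HF20 and HF75, where 1237 of all genes passed in place of 2930.

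Over 110 changes of the 10 genes and 2325 alternative values the sign differed in 190, in 54 of the changes, of which none had passed. For the doses the sign followed here was that of HF75 minus HF20. With the brightness class as a term HF20 minus HF5 was -0.22 for Lpin1 and stayed positive for Agpat2, Dgat1 and Gpd2. The median of all genes moved from 0.06 to -0.05 under quantile normalization and to 0.15 under normexp in HFC against LFC, and from -0.20 to 0.04 and -0.40 in HF20 against HFC. Signals near background limit Gpam, and saturation limits Dgat2, Gpd1 and Pck1.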
